A study of Mus musculus with 18 samples.

Results

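The genes described here encode the proteins that carry methotrexate into cells, keep it there and carry it out again. The 10 genes were chosen by name for these roles, not by their values, though with earlier results of these data known. These were the uptake genes Slc19a1, Slc46a1, Folr1 and Folr2, the retention genes Fpgs and Ggh, and the export genes Abcc2, Abcc3, Abcc4 and Abcg2. They are 10 of the 21153 named genes on the array, and all 10 were among the 19608 genes whose signal was high enough to test. They are measured by 13 probes: Slc19a1, Slc46a1 and Folr1 have 2 probes each, and the other 7 genes have 1. Every one of the 13 probes lay well above background on all 18 arrays.

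Liver RNA came from male C57BL/6 mice fed from 6 weeks of age either a low fat diet with 10% fat (LFD) or a high fat diet with 60% fat (HFD). After 10 weeks on the diet, some mice of each diet were given methotrexate at 50 mg/kg into the peritoneum (MTX50) for 5 rounds, and liver was taken 1 week after the 5th round. The groups held 4 mice (LFD), 5 mice (LFD MTX50), 4 mice (HFD) and 5 mice (HFD MTX50), with 1 single-colour Agilent array per mouse. The animals without methotrexate were labelled as having no treatment, so that no group received the injection alone.

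Methotrexate is a folate analogue that blocks enzymes of the folate cycle and is extended inside cells with a chain of glutamates. Cells take it up mainly through the reduced folate carrier, with a proton-coupled carrier and membrane-anchored folate receptors as further routes. Folylpolyglutamate synthase adds the glutamates that hold the drug in the cell, gamma-glutamyl hydrolase removes them, and ATP-driven pumps of the ABCC and ABCG families export the drug to bile or blood, which makes the liver both a site of storage and a route of clearance.

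Upstream sequence is shown for Abcg2 and Slc46a1 because these were the members called lower in LFD MTX50 livers. The letters are from RefSeq on the build GRCm38.p6, plus strand, and each ends at the base before the start that RefSeq gives for the gene, position 58584491 for Abcg2 and 78465701 for Slc46a1. Capitals in the Abcg2 sequence mark AGGTCA, the core bound by many nuclear receptors, and its reverse complement, and capitals in the Slc46a1 sequence mark the reverse complement of GCGTG, the core of the xenobiotic response element. Sequence upstream of the outermost Abcg2 start, chr6:58584283-58584490, 208 bases, and of the Slc46a1 start, chr11:78465451-78465700, 250 bases:
Abcg2: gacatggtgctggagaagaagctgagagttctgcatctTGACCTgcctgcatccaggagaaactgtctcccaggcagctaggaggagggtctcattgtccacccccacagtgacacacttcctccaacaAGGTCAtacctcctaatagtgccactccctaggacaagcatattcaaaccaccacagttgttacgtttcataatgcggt
Slc46a1: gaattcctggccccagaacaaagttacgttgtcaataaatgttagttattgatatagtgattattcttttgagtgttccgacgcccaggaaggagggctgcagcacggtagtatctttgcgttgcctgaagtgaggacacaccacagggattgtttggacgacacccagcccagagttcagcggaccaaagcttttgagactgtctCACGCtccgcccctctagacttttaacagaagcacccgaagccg

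Among 32536 upstream windows of 250 bases, 14.0% held AGGTCA, 28.3% held GCGTG and 10.2% held TGACNNNGC, the core of the antioxidant response element, each searched on both strands. Upstream windows were found for 7 of the 10 genes, 12 windows in all, of which 3 held AGGTCA, 4 held GCGTG and 5 held TGACNNNGC. On either strand, AGGTCA occurred 2 times in the window of the outermost Abcg2 start, and 0 and 1 times in those of its other starts. The presence of these letters describes the sequence and is not evidence of binding.

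Levels below are log2 processed signal relative to the 75th percentile of the same array, and levels are compared only within a probe. A difference was called when the adjusted p of limma, over all probes tested, was below 0.05, and a gene with more than 1 probe was read on its brighter probe unless stated. The 75th percentile signal ran from 1202.7 to 2263.0 intensity units and the share of probes well above background from 83.9 to 90.6%. The arrays lay on 6 slides. All LFD arrays were on 1 slide, and LFD MTX50 shared no slide with another group, so that slide and group cannot be told apart in comparisons with these groups. A single slide held both HFD mice 3 and 4 and mice 1 and 2 of HFD MTX50. All 7 markers of hepatocytes read, such as albumin, were well above background on all 18 arrays. HFD MTX50 mouse 5 stood apart in Abcc3, in Folr1 on its brighter probe and in markers of monocytes and neutrophils. It was also highest in erythroid and proliferation markers. The calls that change without this mouse are given with and without it.

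In lean mice, 2 of the 10 genes were lower after methotrexate, the exporter Abcg2 by 1.48 ± 0.15 (SE) on the log2 scale and the proton-coupled folate carrier Slc46a1 by 0.29 ± 0.10, against 28.1% of all genes called in LFD MTX50 vs LFD and 10.5% called lower. In obese mice, 0 of the 10 were called in HFD MTX50 vs HFD by limma, where 10.9% of all genes were called (4.81% higher, 6.12% lower). An unadjusted limma p below 0.05 was found for 3 of the 10 in HFD MTX50 vs HFD. The same count was 3 in LFD MTX50 vs LFD, 3 in HFD MTX50 vs LFD MTX50, 1 in HFD vs LFD and 2 for the difference between the methotrexate effects. The share of all genes below that threshold was not taken, so these counts cannot be compared with the shares called. Diet alone moved 1 of the 10, the reduced folate carrier Slc19a1, which was higher in HFD than in LFD, against 28.4% of all genes called and 18% called higher. Without HFD MTX50 mouse 5 there were 3, Folr1 and Abcc3 being called as well, and without any 1 of 6 of the LFD and HFD mice there were 0. Over all fits with 1 array left out, 2246 to 6285 of the 19608 genes were called in this comparison. HFD MTX50 livers differed from LFD MTX50 livers in 2 of the 10, Abcg2 and Slc46a1, both higher in HFD MTX50, against 16.1% of all genes called, 7.36% higher and 8.75% lower. Without HFD MTX50 mouse 5 there were 4, again with Folr1 and Abcc3. Here the fits with 1 array left out called 1373 to 4277 of the 19608 genes. The effect of methotrexate differed between the diets in 1 of the 10, Abcg2, against 26.7% of all genes called, 8.65% higher and 18.1% lower. The median absolute log2 difference of the 10 genes was 0.28 for diet alone, 0.24 for methotrexate in obese mice and 0.11 for methotrexate in lean mice, beside 0.32, 0.24 and 0.29 over all genes tested. The comparisons share groups: LFD serves both HFD vs LFD and LFD MTX50 vs LFD, and HFD serves both HFD vs LFD and HFD MTX50 vs HFD.

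**Figure D1:**
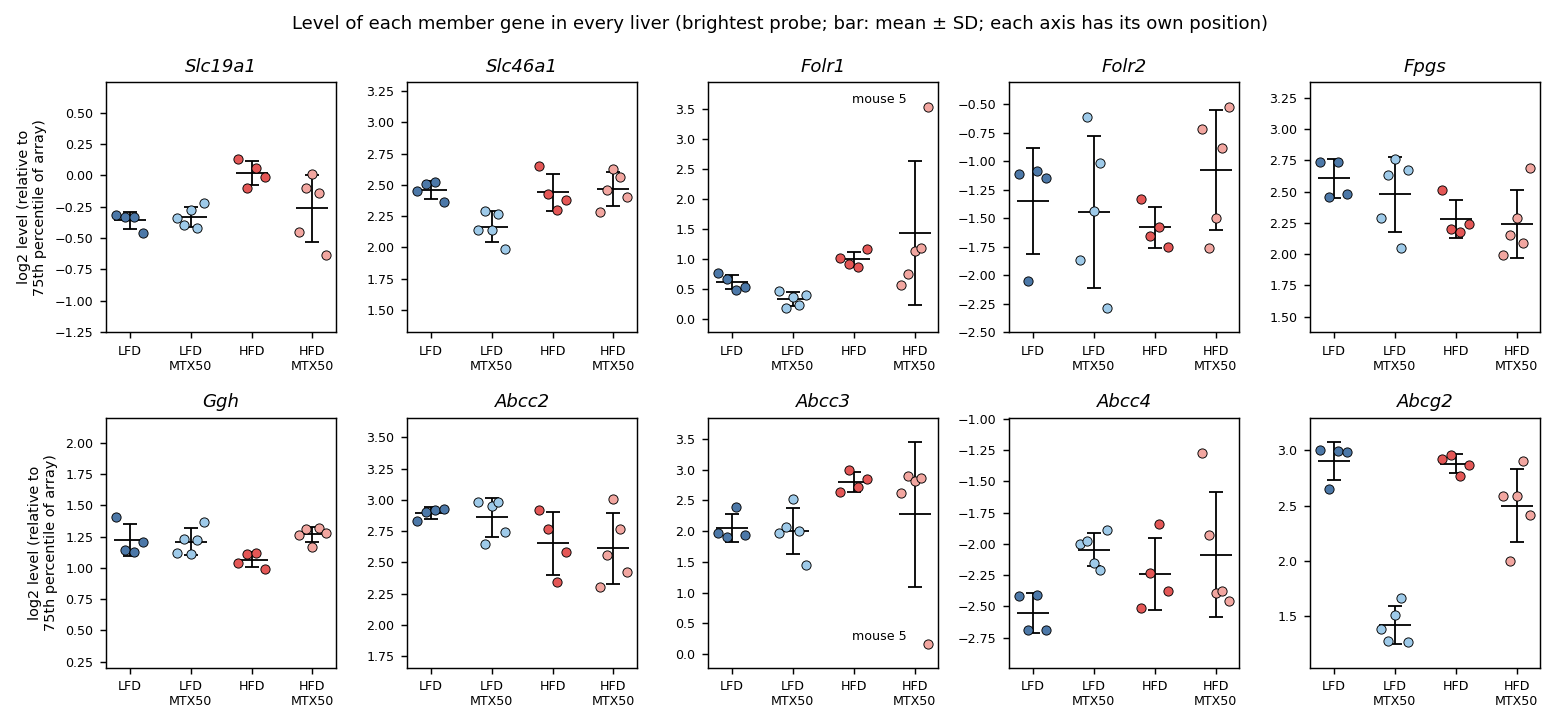
Log2 level, relative to the 75th percentile of the array, of each of the 10 genes in every liver, read on the brighter probe where there are 2; points are mice, and the bars are the group mean and its SD (n = 4, 5, 4 and 5). Abcg2 lies between 1.27 and 1.67 in the LFD MTX50 mice, below every other mouse, and HFD MTX50 mouse 5 stands apart for Folr1 (3.54) and Abcc3 (0.17).

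**Figure D2:**
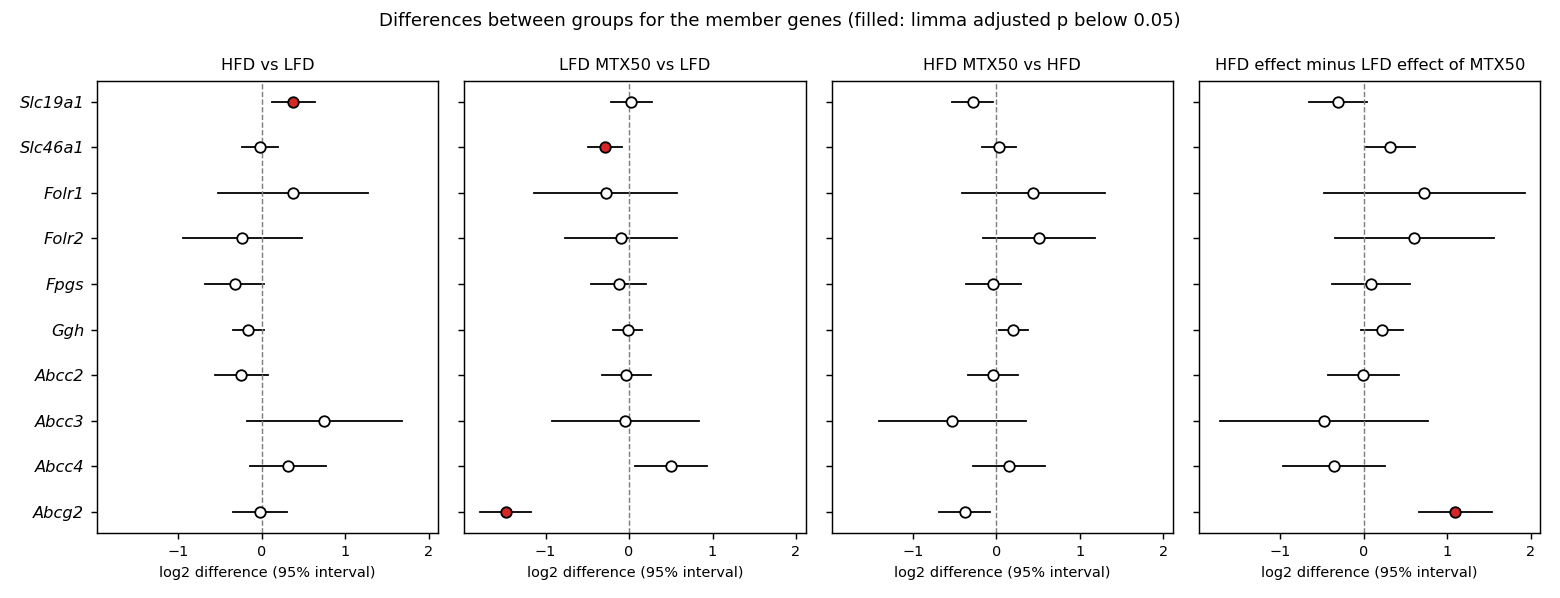
Log2 difference between groups for each gene with its 95% interval from limma; the right panel is the methotrexate effect in HFD minus that in LFD. Filled points passed the adjusted p of 0.05: Slc19a1 (0.38) in HFD vs LFD, Slc46a1 (-0.29) and Abcg2 (-1.48) in LFD MTX50 vs LFD, none in HFD MTX50 vs HFD, and Abcg2 (1.10) for the difference between the effects.

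Slc19a1 encodes the reduced folate carrier, the main route of methotrexate into most cells. On its brighter probe the LFD mice had log2 levels of -0.32, -0.33, -0.33 and -0.46, and the HFD mice 0.13, -0.10, 0.06 and -0.01. Every HFD mouse lay above every LFD mouse. The difference was 0.38 ± 0.12 (SE; 95% interval 0.12 to 0.64), or 1.3-fold, with a limma adjusted p of 0.0306. The call rested on a small margin. It was lost in turn without LFD mouse 2, 3 or 4 or HFD mouse 1, 3 or 4, where the difference was 0.34 to 0.39 and the adjusted p 0.0538 to 0.0817, and it was also lost under normexp background correction (0.28, adjusted p = 0.388), scaling to the median (0.29, adjusted p = 0.0896), the deposited value table (0.32, adjusted p = 0.0732), averaged probes (0.33, adjusted p = 0.113), slide as a random block (adjusted p = 0.158) and the 2-fold threshold of the methods. The dimmer Slc19a1 probe differed by 0.28 ± 0.24 between HFD and LFD and was not called (adjusted p = 0.371).

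On the same probe the HFD MTX50 mice had log2 levels of -0.45, -0.10, 0.01, -0.14 and -0.64, which reached from within the HFD values to below all LFD values. HFD MTX50 vs HFD differed by -0.28 ± 0.12 (adjusted p = 0.109 by limma), and the difference was -0.30 between the 2 mice of each group that shared a slide. The LFD MTX50 mice, at -0.34, -0.40, -0.28, -0.42 and -0.22, overlapped the LFD mice. The difference was 0.03 ± 0.12, with a 95% interval of -0.22 to 0.27.

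The dimmer Slc19a1 probe gave another picture for methotrexate in lean mice. Its log2 levels were -2.28, -1.94, -1.88 and -2.26 in LFD and -1.22, -1.08, -0.74, -1.29 and -0.56 in LFD MTX50, with no overlap. The difference was 1.11 ± 0.22 (95% interval 0.64 to 1.59), or 2.16-fold higher after methotrexate, with a limma adjusted p of 0.00403. It stayed called in each of the 10 other settings, though with an adjusted p of up to 0.0498. The call also held with each of the 18 arrays left out (adjusted p at most 0.0126). Within each mouse, the brighter probe exceeded the dimmer by 1.73 ± 0.19 (SD, n = 4) in LFD and 0.65 ± 0.24 (SD, n = 5) in LFD MTX50. This gap changed by -1.09, with an exact two-sided permutation p of 0.0079, the smallest that 4 against 5 mice can give, and 0.0635 after adjustment over the 12 such tests. With the probes averaged, Slc19a1 was called higher in LFD MTX50 vs LFD, by 0.57 with an adjusted p of 0.0117, so the call for this gene depends on the probe.

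In obese mice the dimmer probe was uneven. HFD mice were tightly grouped at -1.84, -1.82, -1.81 and -1.76, and HFD MTX50 mice spread over -1.01, -0.76, -1.39, -1.94 and -2.00. The first 3 HFD MTX50 mice lay above the HFD range and the other 2 below it. The difference was 0.39 ± 0.22, with a limma adjusted p of 0.243. Between the mice that shared a slide it was 0.90, and the fit with slide as a fixed block gave an adjusted p of 0.0279. Whether the methotrexate effect on this probe differed between the diets rested on 1 mouse: the difference of effects was -0.72 ± 0.32 (adjusted p = 0.0953), and without HFD MTX50 mouse 2 it was -0.89 (adjusted p = 0.0277). Without the same mouse, HFD MTX50 vs LFD MTX50 moved from -0.44 (adjusted p = 0.153) to -0.61 (adjusted p = 0.0448).

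**Figure D3:**
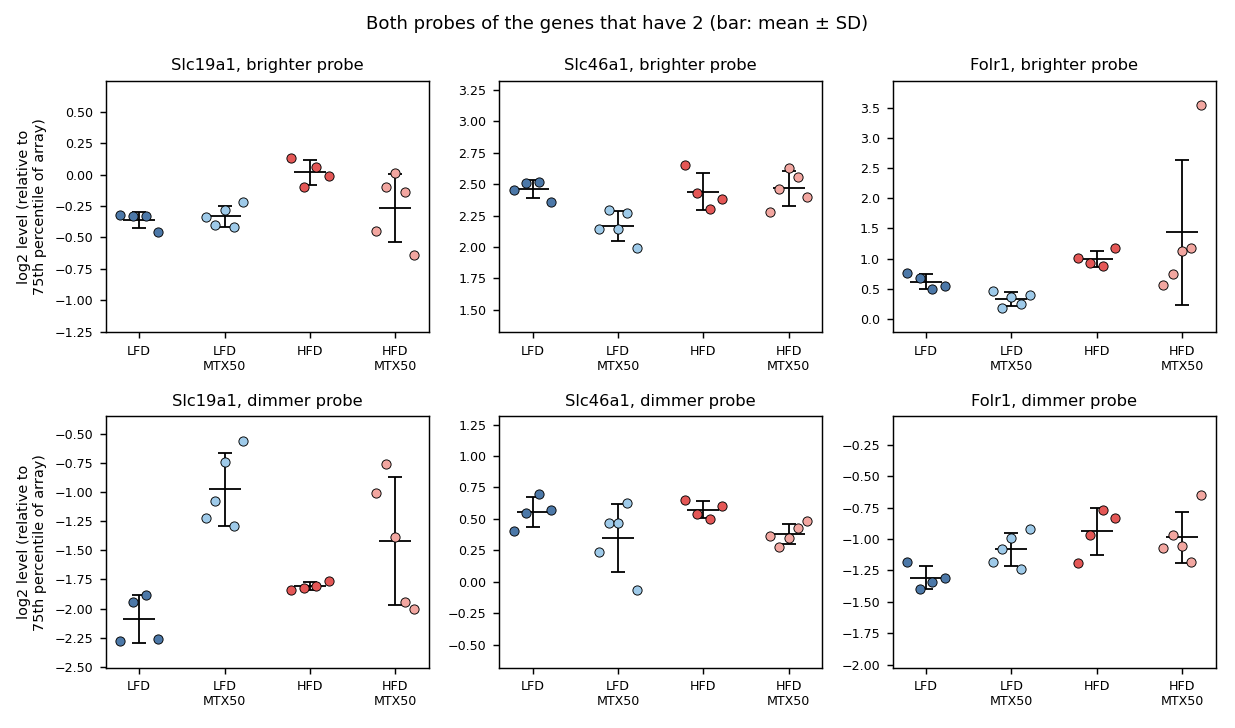
Log2 level in every liver of both probes of Slc19a1, Slc46a1 and Folr1, with the brighter probe in the upper row; points are mice, and the bars are the group mean and its SD. The dimmer Slc19a1 probe separates LFD MTX50 (-1.29 to -0.56) from LFD (-2.28 to -1.88), while on the brighter probe the LFD MTX50 mice (-0.42 to -0.22) overlap the LFD mice.

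Slc46a1 encodes the proton-coupled folate transporter, which works best in acid surroundings. On its brighter probe the LFD mice had log2 levels of 2.45, 2.51, 2.52 and 2.36, and the LFD MTX50 mice 2.14, 2.29, 2.14, 2.27 and 1.99. All LFD MTX50 mice lay below all LFD mice. Slc46a1 was lower by 0.29 ± 0.10, or 1.22-fold, with a limma adjusted p of 0.0347. The call was lost without mouse 1, 2 or 3 of LFD and without mouse 1, 3 or 5 of LFD MTX50 (difference -0.29 to -0.25, adjusted p 0.0620 to 0.0871), with normexp background correction (-0.61, adjusted p = 0.154), with quantile normalization (-0.19, adjusted p = 0.133), with averaged probes (-0.25, adjusted p = 0.0609), with the replicate number as a block (-0.26, adjusted p = 0.0779), under the 2-fold threshold of the methods and when slide entered as a random block (adjusted p = 0.146).

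In obese mice Slc46a1 was not called. Levels were 2.65, 2.43, 2.30 and 2.38 in HFD and 2.28, 2.46, 2.63, 2.56 and 2.40 in HFD MTX50. The ranges overlapped, and the difference was 0.03 ± 0.10. HFD MTX50 vs LFD MTX50 differed by 0.30 ± 0.09 (adjusted p = 0.0365 by limma), a call lost without LFD MTX50 mouse 1, 3 or 5 or HFD MTX50 mouse 3 or 4 (0.26 to 0.29, adjusted p 0.0640 to 0.0883). It was also lost in 7 of the 11 other settings: under normexp (0.17, adjusted p = 0.556), with quantile normalization (adjusted p = 0.0537), with the compared groups alone (0.114), with slide as a random block (0.137), with the replicate number as a block (0.0551), with averaged probes (0.17, adjusted p = 0.210) and under the 2-fold threshold of the methods. The difference between the methotrexate effects was 0.32 ± 0.14 with an adjusted p of 0.0889, which was 0.0367 without HFD mouse 1, 0.0453 without HFD MTX50 mouse 1, 0.0451 with scaling to the median and 0.0372 with the deposited value table. The dimmer Slc46a1 probe was called in none of the 5 comparisons. Its levels ran from 0.40 to 0.70 in LFD, -0.07 to 0.63 in LFD MTX50, 0.50 to 0.65 in HFD and 0.28 to 0.48 in HFD MTX50, and LFD MTX50 vs LFD differed by -0.21 ± 0.12 (adjusted p = 0.182).

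Folr1 encodes folate receptor alpha, a membrane-anchored receptor found mostly on epithelia. Its brighter probe had log2 levels of 0.76, 0.67, 0.49 and 0.54 in LFD and 1.01, 0.92, 0.87 and 1.17 in HFD. The HFD mice all lay above the LFD mice. HFD MTX50 mice were at 0.57, 0.75, 1.13, 1.18 and 3.54, so that mouse 5 was far above every other liver on this probe. On the dimmer probe mouse 5 was at -0.65, the highest liver but close to HFD mouse 3 at -0.77. The gap between the probes was 4.19 in mouse 5 and 1.64 to 2.36 in the other HFD MTX50 mice. The limma model estimates the spread over all groups. On the brighter probe the HFD vs LFD difference of 0.38 ± 0.43 had an adjusted p of 0.513 with mouse 5 and 0.0383 without mouse 5. The dimmer Folr1 probe, which the array annotation lists under another transcript accession of the gene, was called in this comparison with mouse 5 included. It differed by 0.37 ± 0.12 (1.29-fold higher in HFD, adjusted p = 0.0345), a call lost without LFD mouse 2, 3 or 4 or HFD mouse 2, 3 or 4 (0.31 to 0.38, adjusted p 0.0553 to 0.114), and under normexp (adjusted p = 0.274), quantile normalization (0.0775), scaling to the median (0.0807), slide as a random block (0.147) and the 2-fold threshold of the methods.

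Folr1 in lean mice was at 0.47, 0.18, 0.37, 0.24 and 0.40 after methotrexate on the brighter probe, all below the LFD mice. LFD MTX50 vs LFD differed by -0.28 ± 0.40 (adjusted p = 0.613, and 0.0899 without HFD MTX50 mouse 5), while the dimmer probe gave 0.22 ± 0.12 (adjusted p = 0.145). The gap between the probes narrowed by 0.51, with an exact two-sided permutation p of 0.0159 and 0.0635 after adjustment over the 12 tests. Every HFD MTX50 mouse exceeded every LFD MTX50 mouse on the brighter probe. That difference was 1.10 ± 0.38 with an adjusted p of 0.0559, and 0.58 with an adjusted p of 0.0135 without mouse 5. Without HFD MTX50 mouse 1 it was 1.32 (adjusted p = 0.0235) and without HFD MTX50 mouse 2 it was 1.28 (adjusted p = 0.0396). The adjusted p was also below 0.05 with the replicate number as a block (0.0357) and when each kept probe had to pass the background test on all 18 arrays (0.0454). The dimmer probe did not show this difference: it gave 0.09 ± 0.11 (limma adjusted p = 0.574), and the 2 groups overlapped. In HFD MTX50 vs HFD the sign on the brighter probe depended on mouse 5. It was 0.44 ± 0.40 (adjusted p = 0.468) over all mice and -0.08 without mouse 5.

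Folr2 encodes folate receptor beta, which is known from macrophages. Its log2 levels varied widely within groups, from -2.05 to -1.09 in LFD, -2.29 to -0.61 in LFD MTX50, -1.75 to -1.33 in HFD and -1.76 to -0.52 in HFD MTX50, and no comparison was called. HFD MTX50 vs HFD differed by 0.51 ± 0.32 (95% interval -0.17 to 1.18, adjusted p = 0.286). Of 11 markers of Kupffer cells and macrophages, such as Clec4f and Timd4, 0 were called in that comparison, 1 in HFD vs LFD (lower in HFD) and 3 in LFD MTX50 vs LFD (1 higher, 2 lower). Of all genes, 10.9%, 28.4% and 28.1% were called in these comparisons. The summed level of the markers ran from 48.4 to 66.8 times the 75th percentile in LFD, 38.5 to 47.7 in LFD MTX50, 37.0 to 61.8 in HFD and 59.4 to 84.0 in HFD MTX50. Bright markers weigh most in this sum. The mean log2 level of the markers went the other way in lean mice, with medians of 0.44 in LFD and 0.59 in LFD MTX50. Its ranges overlapped: 0.04 to 0.55 in LFD, 0.28 to 0.89 in LFD MTX50, 0.08 to 0.52 in HFD and 0.41 to 1.13 in HFD MTX50. In RNA of whole liver, fewer cells of a type and less RNA per cell cannot be told apart.

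Fpgs encodes folylpolyglutamate synthase, which traps methotrexate in the cell. No comparison was called for it. Its log2 levels were 2.46 to 2.74 in LFD, 2.05 to 2.76 in LFD MTX50, 2.18 to 2.51 in HFD and 1.99 to 2.69 in HFD MTX50, so that all groups overlapped. HFD vs LFD had the largest of its 4 differences between groups, -0.33 ± 0.17 (adjusted p = 0.142), and the methotrexate differences were -0.13 ± 0.16 in lean and -0.04 ± 0.16 in obese mice, with 95% intervals of -0.46 to 0.21 and -0.37 to 0.29.

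Ggh encodes gamma-glutamyl hydrolase, the lysosomal enzyme that removes the glutamates. In obese mice it was at 1.04, 1.11, 1.12 and 0.99 without and at 1.26, 1.31, 1.17, 1.32 and 1.28 with methotrexate. All HFD MTX50 mice were above all HFD mice, by 0.20 ± 0.08 or 1.15-fold, and by 0.23 between the mice that shared a slide. The limma adjusted p was 0.109, so the difference was not called. LFD mice were at 1.41, 1.14, 1.13 and 1.21, and LFD MTX50 mice at 1.12, 1.23, 1.11, 1.22 and 1.37. These ranges overlapped, the difference was -0.02 ± 0.08, and the difference between the methotrexate effects was 0.22 ± 0.12 (adjusted p = 0.168). The HFD mice also lay below all LFD mice, by 0.16 ± 0.09 (adjusted p = 0.170). With scaling to the median, HFD vs LFD was called for Ggh (-0.25, adjusted p = 0.0443), and so was the difference between the effects (0.35, adjusted p = 0.0382).

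Abcg2 encodes the breast cancer resistance protein, an exporter on the bile canaliculus that carries methotrexate among many other compounds. Its log2 levels were 3.00, 2.65, 2.99 and 2.98 in LFD and 1.39, 1.28, 1.51, 1.67 and 1.27 in LFD MTX50. Every LFD MTX50 mouse lay far below every LFD mouse. Abcg2 was lower in LFD MTX50 by 1.48 ± 0.15 (95% interval 1.17 to 1.79 lower), or 2.79-fold, with a limma adjusted p of 6.62e-05. The call held in each of the 11 other settings (-1.62 to -1.37, adjusted p at most 0.00581) and with each of the 18 arrays left out (-1.57 to -1.44).

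In obese mice the Abcg2 difference was smaller. HFD mice were at 2.92, 2.96, 2.77 and 2.87, within the LFD range, and HFD vs LFD differed by -0.02 ± 0.15. HFD MTX50 mice were at 2.59, 2.00, 2.59, 2.90 and 2.42, with 4 of the 5 below every HFD mouse. The difference was -0.38 ± 0.15 (95% interval -0.69 to -0.07), with a limma adjusted p of 0.0913. Without HFD MTX50 mouse 4 it was -0.48 (adjusted p = 0.0413), with quantile normalization it was also -0.48 (adjusted p = 0.0419), and between the mice that shared a slide it was -0.52.

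The difference between the effects was tested directly. The methotrexate effect on Abcg2 in HFD minus that in LFD was 1.10 ± 0.21 on the log2 scale, with a limma adjusted p of 0.00531. Every HFD MTX50 mouse lay above every LFD MTX50 mouse, by 1.08 ± 0.14 or 2.11-fold on average (adjusted p = 0.00134). Under normexp background correction both differences kept their sign, at 1.07 and 0.86, but were not called (adjusted p 0.530 and 0.419). With the 2 groups alone in the model, HFD MTX50 vs LFD MTX50 had an adjusted p of 0.0599.

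Erythroid markers moved with Abcg2 in the lean mice. Hba-a1, an alpha globin, was at 3.66, 4.29, 3.71 and 4.21 in LFD and at -0.65, -0.92, -0.84, -1.03 and -0.85 in LFD MTX50. Of the 3 erythroid markers tested of 4 listed, Hba-a1 and Alas2 were called lower in LFD MTX50 vs LFD and Slc4a1 was not called. The summed marker level was 15.8 to 22.7 in LFD, 1.02 to 1.57 in LFD MTX50, 10.4 to 22.4 in HFD and 1.35 to 54.6 in HFD MTX50. In HFD MTX50 mice 1 to 5, Hba-a1 was at -0.72, -0.63, -0.10, 4.21 and 5.67, and Abcg2 was at 2.59, 2.00, 2.59, 2.90 and 2.42. The part of erythroid RNA in the Abcg2 result was not tested.

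Abcc2 encodes MRP2, the canalicular pump that carries methotrexate into bile. It was called in no comparison, and its groups overlapped. Levels were 2.83 to 2.93 in LFD, 2.65 to 2.98 in LFD MTX50, 2.34 to 2.92 in HFD and 2.30 to 3.01 in HFD MTX50. The methotrexate difference was -0.03 ± 0.14 in lean mice (95% interval -0.33 to 0.27) and -0.04 ± 0.14 in obese mice (-0.34 to 0.26).

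Abcc3 encodes MRP3, which exports organic anions from the hepatocyte into blood. Its log2 levels were 1.97, 1.90, 2.39 and 1.94 in LFD and 2.63, 3.00, 2.71 and 2.84 in HFD. Every HFD mouse exceeded every LFD mouse. The difference was 0.75 ± 0.44, or 1.68-fold, with an adjusted p of 0.201. HFD MTX50 mice were at 2.62, 2.89, 2.81, 2.86 and 0.17. Mouse 5 was lower than all other livers and widened the spread that limma estimates over the groups. Without it the HFD vs LFD difference had an adjusted p of 0.00746, HFD MTX50 vs LFD MTX50 changed from 0.27 (adjusted p = 0.658) to 0.79 (adjusted p = 0.0129), HFD MTX50 vs HFD changed from -0.53 to -0.003, and the difference between the methotrexate effects from -0.48 to 0.04. LFD MTX50 mice were at 1.96, 2.07, 2.52, 2.00 and 1.45 and overlapped the LFD mice.

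The liver with the outlying Abcc3 value, and the outlying Folr1 value on the brighter probe, also had the highest level of several kinds of markers. The 6 markers of monocytes and neutrophils on the array had a mean log2 level of 1.95 in HFD MTX50 mouse 5, against -2.12 to -0.18 in the other HFD MTX50 mice and -2.81 to -2.68 in LFD. Their summed level was 85.8 in that mouse, and 2.79 to 14.8 in the other 17. S100a8, a calcium-binding protein abundant in neutrophils, was at 3.94 in mouse 5 and at most 1.87 in any other liver. Mouse 5 was also the highest of all livers in the mean log2 level of erythroid (2.38), proliferation (-1.59) and Kupffer cell and macrophage markers (1.13). It was the lowest in that of lymphocyte markers (-0.66). The 6 cholangiocyte markers, 4 of them well above background on every array, did not set mouse 5 apart, at -3.35 on average within a range of -3.79 to -2.76 over all mice. The part of RNA from any of these cells in the Folr1 and Abcc3 values was not tested.

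**Figure D4:**
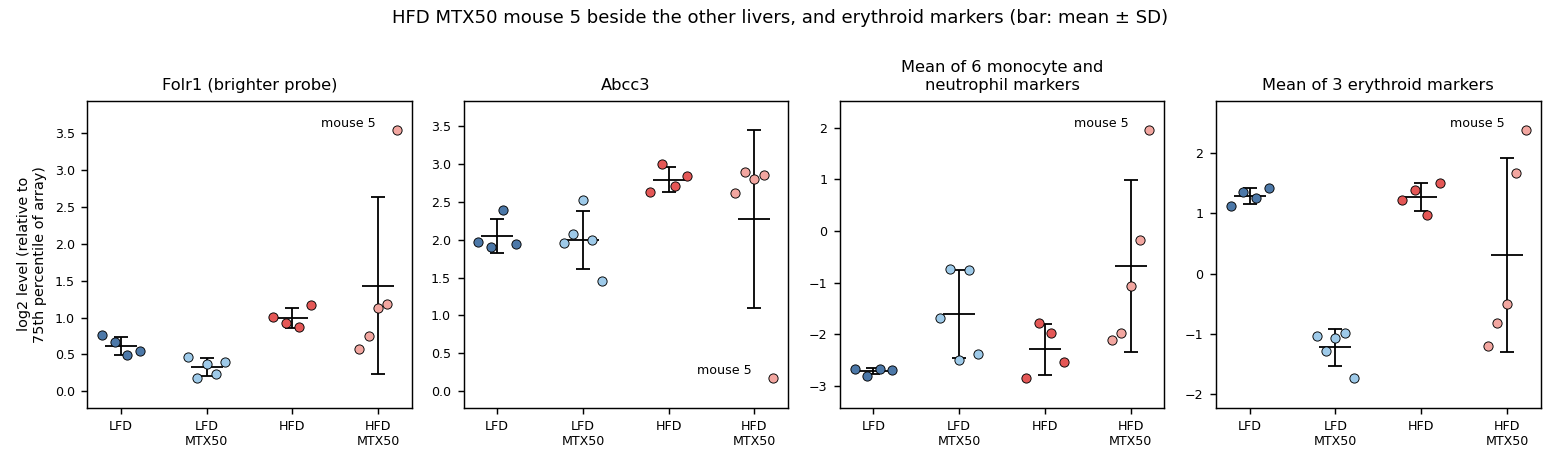
Log2 level, relative to the 75th percentile of the array, of Folr1 and Abcc3 and mean log2 level of 6 monocyte and neutrophil markers and 3 erythroid markers in every liver; points are mice, and the bars are the group mean and its SD. HFD MTX50 mouse 5 is highest for Folr1 on its brighter probe (3.54), the monocyte and neutrophil markers (1.95) and the erythroid markers (2.38). It is lowest for Abcc3 (0.17). The erythroid markers are low in all LFD MTX50 mice and in HFD MTX50 mice 1 to 3.

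Abcc4 encodes MRP4, a basolateral exporter of methotrexate and bile acids. LFD mice were at -2.42, -2.69, -2.41 and -2.69, and LFD MTX50 mice at -2.00, -1.98, -2.15, -2.21 and -1.89. The LFD MTX50 mice were all higher, by 0.51 ± 0.20 or 1.42-fold, with a limma adjusted p of 0.0690. The adjusted p was 0.0156 without HFD MTX50 mouse 1 and 0.00861 with LFD and LFD MTX50 alone in the model. The mice on HFD, at -2.51 to -1.84 without and -2.46 to -1.27 with methotrexate, overlapped. HFD MTX50 mouse 1 had the value of -1.27, and without it the methotrexate effect in HFD minus that in LFD moved from -0.36 (adjusted p = 0.362) to -0.56 (adjusted p = 0.0472).

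For each called gene, the gene with the most similar pattern over the 18 arrays was found. It was Ociad2 for Abcg2 (Pearson r = 0.94), Slc25a42 for Slc46a1 (r = 0.93) and 4933405L10Rik for Slc19a1 (r = 0.94). These arrays share groups and slides, and the values describe likeness only.

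Another 10 carriers, of folates and organic anions, were read beside the members. In LFD MTX50 vs LFD, 3 were higher and 1 lower, beside 17.6% and 10.5% of all genes. Slco1a4, an organic anion uptake carrier, was higher by 1.18 ± 0.17 (adjusted p = 0.000879), Slc25a32, the mitochondrial folate carrier, by 0.88 ± 0.12 (adjusted p = 0.000701) and Slc19a3, a thiamine carrier related to Slc19a1, by 0.42 ± 0.14. The related anion carrier Slco1a1 fell by 2.29 on the log2 scale, 4.89-fold (adjusted p = 0.00899). In HFD vs LFD, Slc22a6, an organic anion transporter best known from the kidney, was higher by 1.15 ± 0.17 (adjusted p = 0.00244) and Slc19a3 by 0.73 ± 0.14 (adjusted p = 0.00445). For methotrexate in obese mice only Slc22a6 of the 10 was called, beside 10.9% of all genes, and it fell by 0.59. The methotrexate effect was lower in HFD than in LFD for 4 of the 10, beside 18.1% of all genes: Slco1a4 (-1.38, adjusted p = 0.00482), Slc22a6 (-0.88), Slc25a32 (-0.79) and Slc19a3 (-0.73). HFD MTX50 livers were below LFD MTX50 livers for Slco1a4 (-1.26) and Slc25a32 (-0.75).

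Among 12 other ABC transporters, 4 were higher and 0 lower in LFD MTX50 vs LFD, where 28.1% of all genes were called, 17.6% higher. Abcb1a and Abcb1b, which encode the P-glycoproteins, were higher by 0.60 ± 0.11 (adjusted p = 0.00225) and 0.59 ± 0.21 (adjusted p = 0.0454), Abcc12 by 0.83 ± 0.30 (adjusted p = 0.0468) and Abcc9 by 0.48 ± 0.16 (adjusted p = 0.0359). Abcc9 encodes a regulatory subunit of potassium channels and not an exporter. For methotrexate in obese mice, 0 of the 12 were called by limma, beside 10.9% of all genes. In HFD vs LFD, Abcb1a was higher by 0.43 ± 0.11 and Abcb11, the bile salt export pump, fell by 0.75. The methotrexate effect in HFD was below that in LFD for Abcb1a (-0.80, adjusted p = 0.00536) and Abcc5 (-0.65) and above it for Abcc10 (0.78). HFD MTX50 vs LFD MTX50 was called for Abcc10 (0.58), Abcc9 (-0.49) and Abcb1a (-0.37).

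Of 10 genes for the enzymes that methotrexate blocks, the folate cycle around them and its oxidation, 0 were called in LFD MTX50 vs LFD by limma, where 28.1% of all genes were. In HFD MTX50 vs HFD, 2 of the 10 were called, beside 10.9% of all genes. Aox1, an aldehyde oxidase, fell by 1.02 (adjusted p = 0.0293) and Shmt1, the cytosolic serine hydroxymethyltransferase, by 0.54 (adjusted p = 0.0206). Mthfd1 fell by 0.52 in HFD vs LFD. The effect of methotrexate on Tyms, thymidylate synthase, was higher in HFD than in LFD by 0.67 (adjusted p = 0.0432), and Shmt1 was lower in HFD MTX50 than in LFD MTX50 (-0.57).

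A list of 14 regulators of drug transporter genes and their known targets was also read. In LFD MTX50 vs LFD, 3 were higher and 4 lower, beside 17.6% and 10.5% of all genes. Nqo1, a target of NRF2, was higher by 0.84 ± 0.16 (adjusted p = 0.00353). Cyp1a2, a target of the aryl hydrocarbon receptor, fell by 1.73 (adjusted p = 0.0036), Gclc by 1.17, Gstm3 by 0.91 and Nfe2l2, which encodes NRF2, by 0.72. Gclc and Gstm3 are also known targets of NRF2, so that its targets on the list moved in both directions. In HFD vs LFD, Cyp2b10, a target of the constitutive androstane receptor, was higher by 2.24 ± 0.73 (adjusted p = 0.0322) and Nqo1 by 0.56 ± 0.17. Methotrexate in obese mice was followed by a call in 1 of the 14, beside 10.9% of all genes. This was Gstm3, which fell by 1.40 (adjusted p = 0.0179). The methotrexate effect on Nqo1 was lower in HFD than in LFD by 0.90 ± 0.23 (adjusted p = 0.013), and HFD MTX50 vs LFD MTX50 was called for Cyp1a2 (0.97) and for Keap1, the inhibitor of NRF2 (-0.40).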

How the data were processed

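Liver RNA of 18 mice was hybridised to 1-colour Agilent 4×44K arrays, and the authors extracted spot intensities with Agilent Feature Extraction 10.7.3.1; per the file headers the deposited processed intensity is background-subtracted and not normalized between arrays. The log2 intensity was reduced by the 75th percentile of the array. On each array 124 to 294 outlier spots were dropped, and the mean was taken over the remaining spots of each probe; 0 spots reached saturation. Probes well above background on at least 4 arrays were kept (35746 of 39429). A RefSeq table (GRCm38.p6) named 28025 probes; the array's own layout uses an earlier build, so no probe positions are given. The number of arrays limits the precision.

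limma 3.58.1 (R 4.3.3) fitted the 4 groups, with p adjusted by Benjamini and Hochberg across every kept probe and calls made at 0.05 with no fold threshold. Probe pairs were compared by exact permutation tests. Alternatives were normexp (offset 50) on the median spot and background signals, since a mean signal column was not used here, quantile and median scaling, the deposited value table (floor of 0.001 of the 75th percentile), other filters, slide and replicate blocks, probe averages, the thresholds of the methods (unadjusted p of 0.015 and 2-fold), and leaving out each array.

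The text names all 10 members, at most 5 called genes per other list and comparison, by size, and the gene most like each called member, except for results not reported here; Hba-a1, Alas2, Slc4a1, S100a8, Clec4f and Timd4 were named later from the marker lists. Members and lists were chosen with earlier results of these data known.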

Additional observations from a re-analysis of the deposited data

Results flagged for a closer look

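The values of each gene's probes in each group were screened for a mouse apart from the rest of its group. The gap to the next mouse was set against the range of the group, so a small gap can be flagged in a tight group. Of 52 groups, 6 held such a mouse, and chance alone would give about 1 in 20. The 52 groups are 13 probes read in the same 18 mice and are not independent, so an excess over chance was not tested. In HFD MTX50, mouse 5 was the highest for Folr1, at 3.54 on the brighter probe, and the lowest for Abcc3, at 0.17. In LFD, mouse 4 was the lowest for Slc19a1, at -0.46 on the brighter probe. LFD mouse 2 was the lowest for Folr2, at -2.05, and for Abcg2, at 2.65. LFD mouse 3 was the highest for Abcc3, at 2.39. These are log2 levels relative to the 75th percentile of the array.

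The Abcg2 difference between mice with and without methotrexate was not the same in the 2 diets. The difference in HFD minus that in LFD was 1.10 on the log2 scale, with an adjusted p of 0.00531 by limma. It was not called under normexp background correction (1.07, adjusted p = 0.530). LFD and LFD MTX50 shared no slide, so slide and treatment cannot be told apart in the LFD part. All LFD MTX50 mice lay below all LFD mice while HFD MTX50 mice 1 to 5 lay at 2.59, 2.00, 2.59, 2.90 and 2.42 beside an HFD range of 2.77 to 2.96.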

How the results depend on the processing

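Of the 8 called differences, 0 changed sign in any setting tried. Abcg2 in LFD MTX50 vs LFD (adjusted p at most 0.00581) and the dimmer Slc19a1 probe in the same comparison (at most 0.0498) kept their calls in all of them. The calls of Slc19a1, Slc46a1 and the dimmer Folr1 probe were those lost most often. The cause was not tested. The number of members called in HFD vs LFD was 1 as reported. It was 0 under normexp background correction, with the value table of the series, with slide as a random block and with probes averaged. It was also 0 with the thresholds of the methods (unadjusted p of at most 0.015 and 2-fold). With only the compared groups in the fit it was 4 (with Folr1, Fpgs and Abcc3). That fit called 8171 of the 19608 genes, in place of 5559. With 1 array left out the number of members was 0 to 3, 3 being without HFD MTX50 mouse 5. Under median scaling it stayed 1, but the gene was Ggh in place of Slc19a1. In HFD MTX50 vs HFD it was 0, but 1 under quantile normalization, and 0 to 1 with 1 array left out. In LFD MTX50 vs LFD it was 2, but 1 under normexp, quantile normalization, slide as a random block and the thresholds of the methods. It was 4 with only the compared groups, a fit that called 6221 of all genes in place of 5504. With 1 array left out the number of members was 1 to 3. With averaged probes it stayed 2, with Slc19a1 in place of Slc46a1. In HFD MTX50 vs LFD MTX50 it was 2, but 0 under normexp and with only the compared groups, 1 under quantile normalization, slide as a random block and averaged probes, and 1 to 4 with 1 array left out, 4 being without HFD MTX50 mouse 5; with the thresholds of the methods it stayed 2, with Folr1 in place of Slc46a1. For the difference between the methotrexate effects it was 1, but 0 under normexp, 3 with median scaling, 2 with the value table, and 1 to 3 with 1 array left out. Of the 12 tests of probe pairs, 0 passed as reported, 2 under quantile normalization, 2 under normexp, and 0 to 2 with 1 array left out.

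The labels number the mice of every group alike, but same-numbered mice did not deviate together (25 pairs, r from -0.31 to 0.25, median -0.02, 7 over 0.1; 5 of 18 arrays correlated best with their own number). With the replicate number as a block the members called in LFD MTX50 vs LFD were 1 in place of 2, since the Slc46a1 difference had an adjusted p of 0.0779; in HFD MTX50 vs LFD MTX50 they stayed 2, with Folr1 (adjusted p = 0.0357) in place of Slc46a1 (0.0551). The block also gave 1013 genes in place of 2144 in HFD MTX50 vs HFD, and differences of opposite sign for Abcc2 (0.0023 in HFD MTX50 vs HFD, 0.01 in LFD MTX50 vs LFD) and Abcc3 (0.28 in LFD MTX50 vs LFD).

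Over all genes, 5559 were called for diet alone, 2144 for methotrexate in HFD, 5504 for methotrexate in LFD, 3160 for HFD MTX50 vs LFD MTX50 and 5244 for the difference between effects. These were 2, 0, 339, 1 and 0 under normexp, and with slide as a random block 383, 340, 18 and 1251 in all but HFD MTX50 vs HFD. With the thresholds of the methods they were 562 for diet alone, 931 for methotrexate in LFD and 538 for HFD MTX50 vs LFD MTX50, and methotrexate in HFD had 1.32% of genes in place of 10.9%. With only the compared groups they were 8171 for diet alone, 0 in HFD MTX50 vs HFD, 6221 for methotrexate in LFD and 9 in HFD MTX50 vs LFD MTX50. Slide as a fixed block gave 1429 in HFD MTX50 vs HFD, and quantile normalization gave 3669 in LFD MTX50 vs LFD and 3329 for the difference. With 1 array left out the ranges were 2246 to 6285, 282 to 3033, 3189 to 6216, 1373 to 4277 and 3009 to 6201, and HFD MTX50 vs HFD had 1100 without HFD MTX50 mouse 5. Median scaling lowered every LFD MTX50 vs LFD difference by about 0.10 and raised the difference between effects by 0.13, and the share of calls that were higher moved from 63.4 to 47.0% in HFD vs LFD, 62.7 to 43.5% in LFD MTX50 vs LFD, 45.7 to 56.3% in HFD MTX50 vs LFD MTX50 and 32.4 to 50.2% for the difference; quantile normalization gave 47.4, 45.3, 51.4 and 45.2%.

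Differences that changed sign were at most 0.48 in size as reported, and 0 of them were called. Under normexp they were Folr2 in HFD vs LFD (0.13) and LFD MTX50 vs LFD (0.18), Slc46a1 in HFD MTX50 vs HFD (-0.10), the dimmer Folr1 probe there (0.20), Ggh (-0.12), Abcc4 (0.40) and the dimmer Slc46a1 probe (-0.02) in HFD MTX50 vs LFD MTX50, and Abcc2 (0.08) and the dimmer Slc46a1 probe (-0.03) for the difference between effects. Under quantile normalization they were Slc46a1 (0.10) and Abcg2 (0.12) in HFD vs LFD, Slc46a1 in HFD MTX50 vs HFD (-0.04), Ggh, Abcc2 and Abcc3 (0.06 each) in LFD MTX50 vs LFD, Abcc4 in HFD MTX50 vs LFD MTX50 (0.02), and Fpgs (-0.07) and the dimmer Slc46a1 probe (-0.04) for the difference. Under median scaling they were the dimmer Slc46a1 probe in HFD vs LFD (-0.07), Slc19a1 in LFD MTX50 vs LFD (-0.07), Abcc4 in HFD MTX50 vs LFD MTX50 (0.0032) and Abcc2 for the difference (0.13). With the value table they were Abcg2 in HFD vs LFD (0.06), Fpgs in HFD MTX50 vs HFD (0.03), Slc19a1 in LFD MTX50 vs LFD (-0.07) and the dimmer Slc46a1 probe for the difference (-0.07). Slide as a random block turned Abcg2 in HFD vs LFD (0.02), Ggh in LFD MTX50 vs LFD (0.01) and Abcc2 for the difference (0.0007), and slide as a fixed block turned Folr1 in HFD MTX50 vs HFD (-0.36). Averaged probes turned Slc19a1 (0.05) and Slc46a1 (-0.08) in HFD MTX50 vs HFD and Slc19a1 in HFD MTX50 vs LFD MTX50 (-0.19).

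With 1 array left out, signs also changed for differences of at most 0.48 in size as reported; Folr1 (0.44) in HFD MTX50 vs HFD and Abcc3 (-0.48) for the difference between effects turned without HFD MTX50 mouse 5. In HFD vs LFD the ranges over all such fits were -0.09 to 0.03 for Slc46a1, -0.11 to 0.02 for Abcg2 and -0.03 to 0.06 for the dimmer Slc46a1 probe. In HFD MTX50 vs HFD they were -0.02 to 0.10 for Slc46a1, -0.08 to 0.66 for Folr1, -0.15 to 0.04 for Fpgs, -0.14 to 0.05 for Abcc2, -0.05 to 0.28 for Abcc4 and -0.13 to 0.01 for the dimmer Folr1 probe. In LFD MTX50 vs LFD they were -0.003 to 0.05 for Slc19a1, -0.33 to 0.11 for Folr2, -0.06 to 0.05 for Ggh, -0.06 to 0.02 for Abcc2 and -0.18 to 0.09 for Abcc3. In HFD MTX50 vs LFD MTX50 they were -0.0016 to 0.16 for Slc19a1, -0.25 to 0.05 for Abcc4 and -0.07 to 0.10 for the dimmer Slc46a1 probe. For the difference between effects they were -0.02 to 0.16 for Fpgs, -0.11 to 0.08 for Abcc2, -0.63 to 0.04 for Abcc3 and -0.09 to 0.09 for the dimmer Slc46a1 probe.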
